A study of Mus musculus with 28 samples.

Results

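The subunits of the mitochondrial respiratory chain and of ATP synthase that the nuclear genome encodes were followed in the liver of mice given the plasticizer di(2-ethylhexyl) phthalate (DEHP). The genes were taken by symbol, as the families Nduf (complex I), Sdh (complex II), Uqcr (complex III), Cox4 to Cox8 (complex IV) and Atp5 (complex V), without the Ndufaf assembly factors. Of 17792 genes measured, 82 matched, and 79 of them reached 1 FPKM in at least 3 libraries. FPKM counts fragments relative to transcript length and library size, and is thus a level per length. The 79 genes divided into 35 of complex I, 4 of complex II, 8 of complex III, 15 of complex IV and 15 of complex V. The remaining 2, Atp5s (coupling factor B) and Atp5sl (an assembly factor of the membrane arm of complex I), share the symbol only and are not subunits. The 3 genes below the minimum were Cox6a2, Cox8b and Cox4i2, which encode muscle and lung forms of complex IV subunits.

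Complexes I and II pass electrons from NADH and succinate to coenzyme Q, complex III passes them on to cytochrome c, and complex IV hands them to oxygen. Complexes I, III and IV pump protons across the inner mitochondrial membrane, and complex V lets the protons return and makes ATP. In rodent liver, agonists of the nuclear receptor PPARalpha, among them a metabolite of DEHP, induce peroxisomal and mitochondrial fatty acid oxidation, which delivers electrons to this chain. The subunits encoded by mitochondrial DNA were not used here.

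Whole liver of C57BL/6 mice was sequenced in 28 libraries of 8 groups, formed by genotype, agent and time. Wild-type mice (WT) were set beside knockout mice (KO), which lacked Pparg in macrophages only, per the labels; the sources used here do not give the promoter that drove the deletion. Mice were gavaged with DEHP at 625 mg/kg or with 0.5% carboxymethyl cellulose (CMC), the vehicle, for 28 days (3 libraries per group, replicates 5 to 7) or 90 days (4 libraries per group, replicates 1 to 4). The labels give males of 20 to 30 g and 12 mice per group, and no age. The mice behind each library are not named, and the p-values therefore measure the spread between these libraries. Differences were tested with limma on log2(FPKM + 1) over the 11213 genes that reached the same minimum of 1 FPKM in 3 libraries. A gene was called where its p, adjusted by Benjamini-Hochberg, was under 0.05. Fold changes are on that log2 scale, which understates the change of low genes.

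The liver label was checked against 8 hepatocyte markers, which were all detected and summed to between 31119 and 64584 FPKM per library. Depth, estimated from the spacing of low values, was about 7.62 to 11.98 M fragments. Pparg was between 1.51 and 7.65 FPKM over all libraries, and a whole-organ level does not show its state in macrophages. The myeloid lysozyme gene Lyz2 was at most 2.67 FPKM in KO libraries and at least 38.5 FPKM in WT libraries. Xist, the RNA of the inactive X chromosome, was between 26.7 and 41.0 FPKM at 28 days and at most 0.02 FPKM at 90 days, against the label of males. Sex as read from transcripts and time cannot be told apart. Exocrine pancreas markers summed to 9814 FPKM or more in 5 libraries of 90 days (WT CMC 4, WT DEHP 4, KO DEHP 1, 2 and 3) and to at most 53.5 FPKM in the other 23. The highest of those 23, KO DEHP 4 at 90 days, had 9 of 15 markers at 1 FPKM or more, where the rest had at most 3. Endothelial markers were low in 3 libraries (WT CMC 7 and WT DEHP 5 at 28 days, KO DEHP 4 at 90 days), at 39.5 to 51.9 FPKM against 75.7 FPKM or more elsewhere. Striated muscle markers summed to 174 FPKM in WT CMC 4 at 90 days and to at most 1.54 FPKM in each of the other libraries.

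The question of the treatment comparisons was how DEHP changed the liver. Subunit transcripts of all 5 complexes were higher under DEHP in both genotypes at 28 days, and fewer passed at 90 days. At 28 days in WT, 51 of 79 genes rose (64.6%, where 10.3% of all genes tested were called higher) and 0 fell (against 6.17%). In KO at 28 days 55 of 79 rose (69.6%, against 11.6% of all genes) and 0 fell (against 8.77%). At 90 days 34 of 79 rose in WT (43.0%, against 4.96%) and 18 of 79 in KO (22.8%, against 4.47%), where 1.84% and 1.18% of all genes and 0 of the 79 fell. The median log2 fold change of the 79 genes was 0.38, 0.37, 0.25 and 0.19 in WT and KO at 28 days and WT and KO at 90 days, and that of all genes was between -0.04 and 0.03. None was called lower by limma in these 4 comparisons, and at an unadjusted p under 0.05 a single gene was lower, Ndufa4l2 in WT at 28 days. Of the 79 genes, 72 had a positive fold change in all 4 comparisons, 48 rose in both genotypes at 28 days and 18 passed in none. The same counts over all genes tested were not made, so these describe the 79 genes only.

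Markers of other cell types moved with the agent as well. Of 4 brown adipocyte markers 2, Cidea and Elovl3, were abundant enough to be tested, and 2, 2, 1 and 1 of them rose in WT and KO at 28 days and WT and KO at 90 days. The 4 markers summed to 2.52 to 4.97 FPKM under CMC and 10.6 to 16.6 FPKM under DEHP at 28 days, and to 29.8 to 129 FPKM and 54.1 to 179 FPKM at 90 days, where the agents overlapped. Most of those 90-day sums was Elovl3 (98.38 of 99.7 FPKM in KO DEHP 1). Cidea was at most 0.63 FPKM under CMC and at least 1.32 FPKM under DEHP at 90 days, without overlap. It reached 1 FPKM in DEHP libraries only and was kept only through them. Its part of the counts above is thus a description. Ucp1, which defines brown adipocytes, was listed at 0 in every library but KO DEHP 4 at 90 days (0.06 FPKM). Of 6 adipocyte markers tested 1, 1, 0 and 3 rose. The sums of the list overlapped between CMC and DEHP, at 515 to 918 and 251 to 822 FPKM at 28 days. At 90 days they overlapped at 575 to 1707 and 867 to 1398 FPKM. Most of these sums was Car3 (1260.98 of 1291.9 FPKM in KO DEHP 1 at 90 days). Cfd, another of the list, was at most 0.53 FPKM under CMC and at least 6.84 FPKM under DEHP in KO at 90 days, and overlapped in WT. Adipoq, a defining adipocyte gene, was at most 0.07 FPKM at 28 days and up to 4.17 FPKM at 90 days, in KO DEHP 1. The part of adipocytes in the 90-day results was not tested.

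The groups themselves were apart for most subunits at 28 days. All DEHP libraries lay above all CMC libraries for 64 genes in WT at 28 days (81.0%, against 15.4% of all genes) and for 61 in KO (77.2%, against 19.2%). At 90 days this held for 38 genes in WT (48.1%, against 7.07%) and for 32 in KO (40.5%, against 8.89%). No gene of the 79 had all DEHP libraries below all CMC libraries, as had 11%, 22.5%, 4.58% and 3.46% of all genes in WT and KO at 28 days and WT and KO at 90 days. The 79 genes together took 2.76% to 2.93% of the summed FPKM of the CMC libraries and 3.65% to 3.87% of that of the DEHP libraries at 28 days. At 90 days the ranges were 1.95% to 2.41% under CMC and 2.49% to 2.97% under DEHP, so the agents did not overlap at either time.

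FPKM are shares of a library, and hepatocyte markers, among the most abundant transcripts, moved the other way. Of 8 such markers 5 fell in WT and 6 in KO at 28 days, and 0 and 1 fell at 90 days; their sums were 54140 to 64584 FPKM under CMC and 34276 to 41687 FPKM under DEHP at 28 days, and 31119 to 48319 and 31600 to 42360 FPKM at 90 days. In whole liver, fewer cells of a type and less RNA per cell cannot be told apart. Scaling each library to its upper quartile, the 75th percentile of the tested genes, left 42 of 79 higher in WT (53.2%, against 9.36% of all genes) and 45 in KO (57.0%, against 10.9%) at 28 days. At 90 days it left 28 in WT (35.4%, against 4.82%) and 4 in KO (5.06%, against 3.44%), the 4 being Cox6b2, Cox7c, Atp5g3 and Atp5sl. Again 0 of the 79 were lower, against 9.22%, 12.9%, 3.15% and 2.59% of all genes. The same scaling moved the share of higher genes among all called genes from 62.6% to 50.4%, 57.0% to 45.8%, 73.0% to 60.5% and 79.2% to 57.1% in the same order of comparisons.

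The 90-day counts leaned on single libraries and on the design of the fit. In WT at 90 days the deviations of same-numbered libraries correlated, though the labels name no pairs or batch. Both libraries numbered 4 there carried pancreas markers (15531 FPKM under CMC and 25384 FPKM under DEHP), and their part in the correlations was not tested. With the replicate number as a block 33 genes rose, or 4 (Cox6b2, Cox7c, Ndufb3 and Atp5k) where the fit held those 2 groups alone. The smaller fit takes its spread from those groups alone, with less power, and pairing was not tested. Without the pancreas libraries 23 rose in WT. In KO at 90 days 14 of 15 pancreas markers were called higher (against 4.47% of all genes). Most of them were kept only through the libraries where they were high, so this is a description. Without the pancreas libraries KO DEHP 4 is the only library of its group, so KO calls of that fit are not given. Without the low-endothelial libraries 9 subunit-family genes rose in KO. Fits without KO DEHP 3, KO DEHP 4, KO CMC 1 and KO CMC 3 alone gave 8, 8, 9 and 10. The shares of all genes called in these fits are not given here. A loss particular to the subunits can thus not be told from a general loss of calls.

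**Figure D1:**
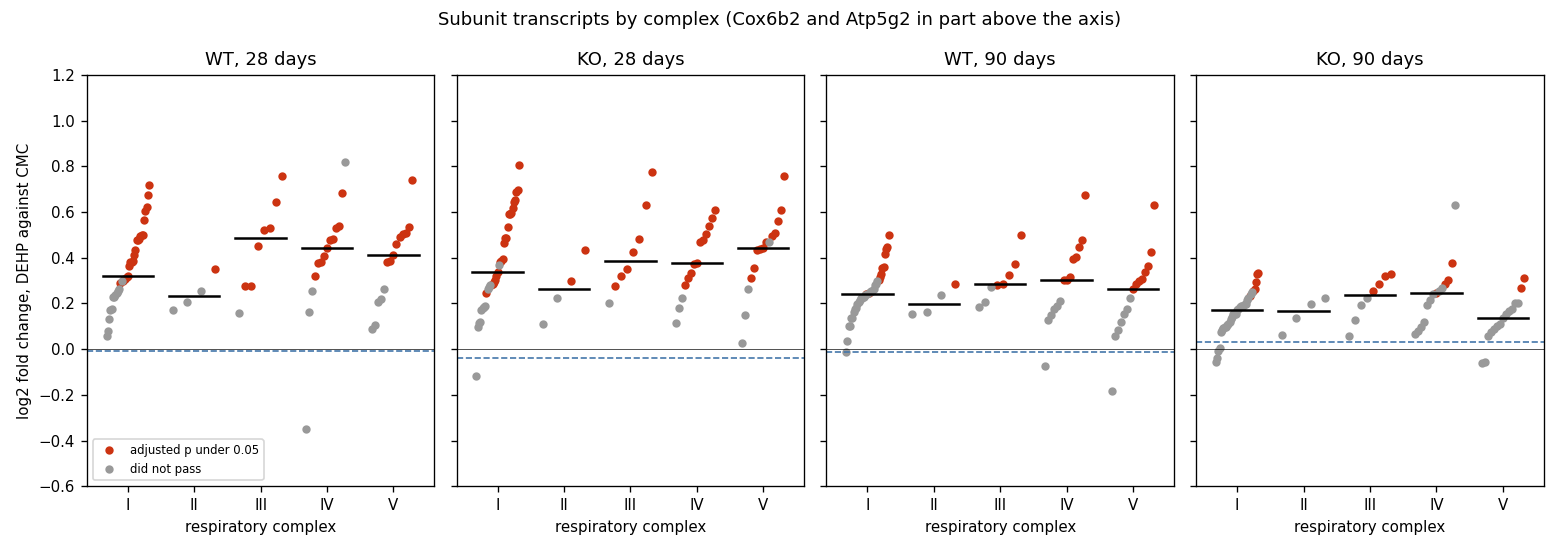
Log2 fold change of each subunit under DEHP against CMC, 1 panel per genotype and time, with the respiratory complex on the horizontal axis. Each point is a gene, red where the adjusted p was under 0.05; black bars are medians per complex and the dashed line is the median of all genes tested. Cox6b2 lies above the axis in all 4 panels (3.98, 3.90, 1.75 and 1.24) and Atp5g2 in WT at 28 days (2.68, not passed).

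Complex I, the largest of the chain, oxidizes NADH in a peripheral arm and pumps protons in a membrane arm. Of its 35 subunits 23 rose in WT and 23 in KO at 28 days (against 10.3% and 11.6% of all genes). At 90 days 11 and 6 rose (against 4.96% and 4.47%). In the N-module, which holds the NADH site, 7, 6, 4 and 3 of 9 rose in WT and KO at 28 days and WT and KO at 90 days. In the Q-module, which passes electrons to coenzyme Q, 5, 6, 2 and 1 of 7 rose. Among the 19 subunits of the membrane arm counted here 11, 11, 5 and 2 rose. The modules stand beside the same shares of all genes, and none was tested as a set.

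Ndufs1, the large iron-sulfur subunit of the N-module, was at 34.2 ± 4.78 FPKM under CMC and 52.7 ± 9.24 FPKM under DEHP in WT at 28 days (SD, n = 3). It rose by 0.60 in WT (adjusted p = 0.000155) and 0.62 in KO (adjusted p = 8.54e-05) at 28 days and by 0.35 in WT at 90 days (adjusted p = 0.0166), and its 0.18 in KO at 90 days did not pass (adjusted p = 0.311). Ndufv1, which binds the flavin that takes electrons from NADH, rose by 0.37 (adjusted p = 0.00648) and 0.29 (adjusted p = 0.0242) at 28 days, and had 0.10 and 0.07 at 90 days (adjusted p = 0.525 and 0.707). Both genes thus passed at 28 days in both genotypes, and at 90 days Ndufs1 passed in WT and Ndufv1 in neither.

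Ndufb3 (Entrez 66495, chromosome 1, 58586397 to 58595964 on GRCm38), an accessory subunit of the membrane arm, had the smallest adjusted p of complex I in 3 of the 4 comparisons. At 28 days it had 56.4, 52.2 and 54.0 FPKM in WT CMC and 89.0, 81.4 and 81.8 FPKM in WT DEHP libraries, and 52.0, 50.4 and 54.5 FPKM in KO CMC and 85.9, 96.8 and 93.8 FPKM in KO DEHP libraries. At 90 days it had 53.3, 49.2, 53.4 and 49.0 FPKM in WT CMC, 70.9, 71.02, 74.4 and 74.9 FPKM in WT DEHP, 53.1, 55.9, 52.9 and 60.7 FPKM in KO CMC and 60.7, 65.0, 69.4 and 67.0 FPKM in KO DEHP libraries. Every DEHP library was above every CMC library of its genotype and time except in KO at 90 days, where the lowest DEHP library was level with the highest CMC library. The log2 fold changes were 0.62 (SE 0.073, adjusted p = 8.37e-07) in WT and 0.80 (SE 0.073, adjusted p = 1.83e-08) in KO at 28 days, and 0.50 (SE 0.063, adjusted p = 1.76e-05) and 0.23 (SE 0.063, adjusted p = 0.0301) at 90 days. The last of these lost its call after upper quartile scaling (adjusted p = 0.223).

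Other accessory subunits of complex I spread widely. Ndufa7 of the N-module rose in all 4 comparisons, by 0.31, 0.39, 0.44 and 0.33 (adjusted p = 0.00839, 0.000908, 0.000319 and 0.0055), and Ndufs5 of the membrane arm rose by 0.67 and 0.59 at 28 days (adjusted p = 7.3e-06 and 2.8e-05) with 0.25 and 0.19 at 90 days (adjusted p = 0.0568 and 0.191). Ndufb9, the most abundant complex I transcript, rose by 0.30, 0.28 and 0.25 in the first 3 comparisons (adjusted p = 0.00987, 0.0123 and 0.03). Ndufa9, Ndufb4 and Ndufs3 had calls between 0.24 and 0.39, and Ndufb11 passed in KO at 90 days alone, at 0.25 (adjusted p = 0.0468). Chosen after their values were seen, Ndufa10 rose by 0.72 and 0.65 at 28 days, while Ndufa1, on the X chromosome, and Ndufa13 passed in no comparison, with fold changes from -0.12 to 0.26.

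Complex II, succinate dehydrogenase, belongs to both the tricarboxylic acid cycle and the chain. Sdha, the flavoprotein that oxidizes succinate and the most abundant of its 4 transcripts, did not pass, with 0.26 and 0.11 at 28 days and 0.24 and 0.22 at 90 days (adjusted p = 0.0573, 0.45, 0.074 and 0.106). Sdhb, its iron-sulfur partner, had 0.21, 0.22, 0.15 and 0.06 (adjusted p = 0.191, 0.129, 0.355 and 0.779). Sdhd, a membrane anchor, had 132, 147 and 144 FPKM in WT CMC and 183, 174 and 183 FPKM in WT DEHP libraries at 28 days, without overlap. It rose by 0.35 and 0.43 at 28 days (adjusted p = 0.00516 and 0.000501) and by 0.28 in WT at 90 days (adjusted p = 0.0194), and had 0.20 in KO (adjusted p = 0.129). Sdhc, the other anchor, accounted for the second of 2 calls in KO at 28 days. Complex II thus gave 1, 2, 1 and 0 calls of 4 in the 4 comparisons (against 10.3%, 11.6%, 4.96% and 4.47% of all genes called higher).

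Complex III gave 7 calls of 8 in both genotypes at 28 days (against 10.3% and 11.6% of all genes called higher). At 90 days it gave 5 and 4 (against 4.96% and 4.47%). Uqcr10 (Entrez 66152, chromosome 11, 4701968 to 4704344), a small subunit of the complex, had the smallest adjusted p in 3 of the 4 comparisons. It had 209, 212 and 249 FPKM in WT CMC, 383, 341 and 413 FPKM in WT DEHP, 215, 217 and 233 FPKM in KO CMC and 409, 385 and 347 FPKM in KO DEHP libraries at 28 days. At 90 days it had 205, 187, 189 and 188 FPKM in WT CMC, 259, 265, 290 and 277 FPKM in WT DEHP, 213, 227, 205 and 214 FPKM in KO CMC and 254, 236, 271 and 290 FPKM in KO DEHP libraries. DEHP and CMC libraries did not overlap in any of the 4 comparisons. The log2 fold changes were 0.76 and 0.77 at 28 days (SE 0.090, adjusted p = 1.15e-06 and 5.95e-07). At 90 days they were 0.50 and 0.29 (SE 0.078, adjusted p = 0.000265 and 0.0304). The last was not called after upper quartile scaling (adjusted p = 0.158). That of WT at 90 days was not called with the replicate block in those groups alone (adjusted p = 0.0501).

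The catalytic and core parts of complex III moved in the same direction. Uqcrfs1, the Rieske iron-sulfur protein that takes electrons from coenzyme Q, had 168 ± 3.80 and 241 ± 7.29 FPKM under CMC and DEHP in WT at 28 days and 171 ± 4.06 and 266 ± 2.69 FPKM in KO (SD, n = 3). It rose by 0.52, 0.63 and 0.29 in WT and KO at 28 days and WT at 90 days (adjusted p = 1.48e-05, 7.12e-07 and 0.00741), with 0.19 in KO at 90 days (adjusted p = 0.0828). Uqcrc1, a core protein that faces the matrix, rose by 0.45 and 0.42 at 28 days (adjusted p = 0.00181 and 0.00264), and 0.27 and 0.22 at 90 days did not pass (adjusted p = 0.0534 and 0.144). Uqcrb, which helps to bind coenzyme Q, rose in all 4 comparisons by 0.28, 0.35, 0.28 and 0.32 (adjusted p = 0.0242, 0.00362, 0.0191 and 0.0111), and Uqcr11 likewise by 0.64, 0.32, 0.37 and 0.33 (adjusted p = 2.41e-05, 0.0186, 0.0062 and 0.0202). Uqcrh rose by 0.28 in each genotype at 28 days alone (adjusted p = 0.0234 and 0.0207). Uqcrq, the most abundant of the family at 573 to 706 FPKM in group means, passed in none, with 0.13 to 0.20.

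Complex IV is built in part from subunits with tissue forms. Of its 11 ubiquitous nuclear subunits 10 rose in WT and 11 in KO at 28 days (against 10.3% and 11.6% of all genes). At 90 days 8 and 4 rose (against 4.96% and 4.47%). Cox4i1, needed for the assembly of the complex, rose by 0.41 and 0.33 at 28 days (adjusted p = 0.000816 and 0.00433) and had 0.21 and 0.19 at 90 days (adjusted p = 0.078 and 0.121). Cox5a, a matrix subunit, rose by 0.38 and 0.47 at 28 days (adjusted p = 0.000954 and 7.46e-05), and had 0.13 and 0.10 at 90 days (adjusted p = 0.305 and 0.505). Cox6a1, the most abundant transcript of complex IV, had 663 ± 35.0 and 956 ± 46.6 FPKM under CMC and DEHP in WT at 28 days (SD, n = 3) and rose in all 4 comparisons, by 0.53, 0.50, 0.30 and 0.24 (adjusted p = 1.78e-05, 2.45e-05, 0.00593 and 0.0302). Ndufa4, named for complex I but a subunit of complex IV, passed in KO at 28 days alone, at 0.37 (adjusted p = 0.0038).

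Cox7c (Entrez 12867, chromosome 13, 86044798 to 86046795), a small membrane subunit of complex IV, had the largest fold change of the ubiquitous subunits of the chain in WT at 90 days. At 28 days it had 446, 497 and 491 FPKM in WT CMC, 623, 702 and 677 FPKM in WT DEHP, 476, 460 and 497 FPKM in KO CMC and 625, 666 and 571 FPKM in KO DEHP libraries. The 90-day values were 381, 352, 312 and 378 FPKM in WT CMC, 510, 602, 568.23 and 589 FPKM in WT DEHP, 395, 446, 373 and 427 FPKM in KO CMC and 553, 535, 487 and 555 FPKM in KO DEHP libraries. No DEHP library fell within the range of its CMC group. The log2 fold changes were 0.48 and 0.38 at 28 days (SE 0.094, adjusted p = 0.000587 and 0.00462) and 0.67 and 0.38 at 90 days (SE 0.081, adjusted p = 9.65e-06 and 0.00636). Cox8a rose by 0.54, 0.54 and 0.39 in the first 3 comparisons (adjusted p = 0.000166, 0.000126 and 0.00346) and Cox6c by 0.32, 0.28 and 0.40 (adjusted p = 0.0146, 0.0276 and 0.0019), and at 90 days in KO they had 0.27 and 0.25 (adjusted p = 0.0542 and 0.0558). Cox7a2 rose by 0.44, 0.61 and 0.32 in the same 3 (adjusted p = 0.000459, 6.97e-06 and 0.00869), with 0.08 in KO at 90 days (adjusted p = 0.652). Its locus overlaps that of Tmem30a on the same strand, so reads of the pair could be split between them.

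Cox6b2 (Entrez 333182, chromosome 7, 4751792 to 4753094), known as the testis form of subunit 6b, reached 1 FPKM in 14 libraries, which were those under DEHP. It was thus kept only through the groups where it was high and had to differ, so its values are given as a description. Every count and list of called genes given here, above and below, includes it. At 28 days it was listed at 0, 0.52 and 0 FPKM in WT CMC and at 12.5, 20.1 and 20.2 FPKM in WT DEHP libraries, and at 0, 0.25 and 0.19 FPKM in KO CMC and 18.7, 14.95 and 14.8 FPKM in KO DEHP libraries. The 90-day values were 0, 0.23, 0.21 and 0.49 FPKM in WT CMC, 3.08, 5.13, 2.29 and 2.45 FPKM in WT DEHP, 0.56, 0.76, 0 and 0.41 FPKM in KO CMC and 2.87, 1.06, 3.22 and 2.59 FPKM in KO DEHP libraries. Every DEHP library was thus above every CMC library of any genotype and time, and the 28-day DEHP libraries were above those of 90 days. The log2 fold changes were 3.98 and 3.90 at 28 days (SE 0.262) and 1.75 and 1.24 at 90 days (SE 0.227).

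Its ubiquitous partner Cox6b1 (Entrez 110323, chromosome 7, 30616971 to 30626114) was far more abundant and also rose. It had 286, 301 and 305 FPKM in WT CMC, 512, 473 and 451 FPKM in WT DEHP, 295, 300 and 303 FPKM in KO CMC and 421, 486 and 431 FPKM in KO DEHP libraries at 28 days. The 90-day values were 256, 251, 265 and 275 FPKM in WT CMC, 338, 387, 358 and 378 FPKM in WT DEHP, 283, 288, 268 and 280 FPKM in KO CMC and 316, 338, 346 and 385 FPKM in KO DEHP libraries. No group under DEHP overlapped its CMC group. The log2 fold changes were 0.68 and 0.57 at 28 days (SE 0.079, adjusted p = 7.61e-07 and 6.64e-06) and 0.48 and 0.30 at 90 days (SE 0.068, adjusted p = 8.29e-05 and 0.00965), the last lost after upper quartile scaling (adjusted p = 0.139). Cox6b2 made up 0.0575% ± 0.0997 and 3.58% ± 1.046 of the FPKM of the pair under CMC and DEHP in WT at 28 days and 0.0487% ± 0.0434 and 3.52% ± 0.652 in KO (SD, n = 3). At 90 days the shares were 0.0871% ± 0.0729 and 0.873% ± 0.316 in WT and 0.152% ± 0.112 and 0.701% ± 0.283 in KO (SD, n = 4).

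**Figure D2:**
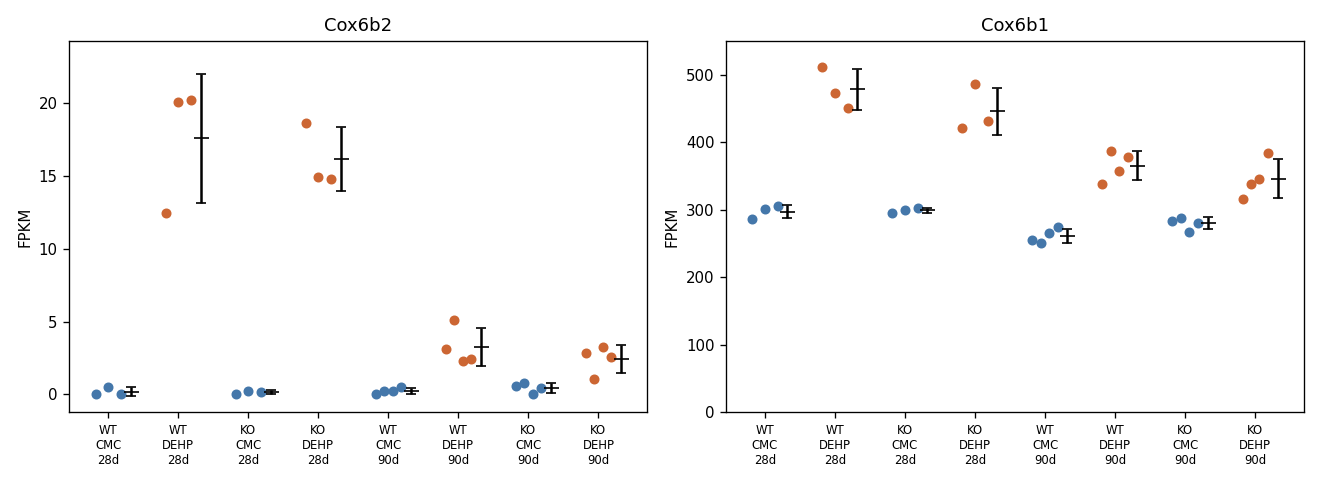
FPKM of Cox6b2 and Cox6b1 in each library of the 8 groups, blue for CMC and orange for DEHP, with the mean and SD of the group in black beside its points. Cox6b2 is near 0 in all CMC groups, between 12.5 and 20.2 FPKM under DEHP at 28 days and between 1.06 and 5.13 FPKM at 90 days; Cox6b1 is between 251 and 305 FPKM under CMC and between 316 and 512 FPKM under DEHP.

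The 250 bases before the RefSeq start of both genes (GRCm38.p6, both on the minus strand) are shown because the isoforms differ so widely in their level under CMC. Capitals mark a CCAAT box, read as CCAAT or ATTGG, or the ETS motif CCGGAAG, read on either strand.
Cox6b2, chr7:4753095-4753344: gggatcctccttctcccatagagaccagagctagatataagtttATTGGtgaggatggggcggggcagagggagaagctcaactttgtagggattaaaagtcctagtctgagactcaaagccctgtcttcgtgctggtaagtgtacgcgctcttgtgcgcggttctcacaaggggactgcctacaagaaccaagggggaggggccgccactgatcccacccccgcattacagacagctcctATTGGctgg
Cox6b1, chr7:30626115-30626364: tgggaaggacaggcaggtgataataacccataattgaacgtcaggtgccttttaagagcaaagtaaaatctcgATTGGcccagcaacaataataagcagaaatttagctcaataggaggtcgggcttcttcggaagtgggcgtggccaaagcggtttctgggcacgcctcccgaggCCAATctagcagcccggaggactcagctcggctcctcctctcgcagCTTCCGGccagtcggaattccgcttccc
Both stretches hold 2 CCAAT boxes, and that of Cox6b1 also holds the ETS motif. Motifs were counted over a longer window, from 250 bases before to 50 bases after the start, in which both genes had 3 CCAAT matches. Among the 67 of 79 genes with this longer window, 30 held a CCAAT box (44.8%, against 39.0% of 8998 windows of genes tested) and 15 the ETS motif (22.4%, against 18.8%). The NRF1 motif, GCGC and TGCGC with any 1 base between, was in 16 (23.9%, against 10.7%) and the YY1 motif AAGATGGCG in 7 (10.4%, against 3.46%), on either strand; the AAG that closes the ETS motif can be the AAG that opens that of YY1. The direct repeat of AGGTCA with any 1 base between the copies, the form of a PPAR response element, was in 0 of 67 (against 0.06% of all windows). These are matches of letters in these windows and nothing more.

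Further tissue forms of complex IV passed in no comparison. Cox7a1, the heart and muscle form of subunit 7a, ranged from 0.36 to 6.95 FPKM and passed in no comparison (0.82, 0.18, 0.15 and 0.63, adjusted p = 0.249 or more), beside Cox7a2 described above. Ndufa4l2, a paralog of Ndufa4 known to respond to low oxygen, stayed between 0.59 and 2.05 FPKM, with -0.35, 0.11, -0.07 and 0.12 (adjusted p = 0.17 or more). Cox7a2l, a factor that joins complexes III and IV, had 0.16, 0.23, 0.19 and 0.07 and passed in none (adjusted p = 0.16 or more). Of the genes left out for low values, Cox6a2 and Cox8b, the muscle forms of Cox6a1 and Cox8a, reached 6.48 and 5.15 FPKM in WT CMC 4 at 90 days, the library with striated muscle markers, and at most 0.33 and 0.89 FPKM elsewhere. Cox4i2, the lung form of Cox4i1, was at most 0.51 FPKM in any library.

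Complex V makes ATP in its F1 head, which a stalk ties to a membrane rotor of c subunits. Of 5 F1 subunits 4, 4, 4 and 0 rose in WT and KO at 28 days and WT and KO at 90 days, and of 10 membrane and stalk subunits 5, 7, 4 and 2. The shares of all genes called higher were 10.3%, 11.6%, 4.96% and 4.47% in that order. Atp5b, the catalytic beta subunit, had 569 ± 56.0 and 783 ± 84.6 FPKM under CMC and DEHP in WT at 28 days and 634 ± 35.3 and 857 ± 29.4 FPKM in KO (SD, n = 3). It rose by 0.46, 0.43 and 0.29 in the first 3 comparisons (adjusted p = 0.000751, 0.00104 and 0.0281) and had 0.18 in KO at 90 days (adjusted p = 0.234). Its partner Atp5a1, the alpha subunit, rose by 0.51, 0.49 and 0.30 (adjusted p = 0.000117, 0.000112 and 0.0141), with 0.16 in KO at 90 days (adjusted p = 0.227). Atp5d, the delta subunit, rose by 0.49, 0.47 and 0.26 (adjusted p = 0.000148, 0.000199 and 0.0277), with 0.20 (adjusted p = 0.115). Atp5e, the epsilon subunit and the F1 member that passed in no comparison, had 0.02 to 0.15 and was named after its values were seen.

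Atp5g3 (Entrez 228033, chromosome 2, 73908447 to 73912464), which with Atp5g1 and Atp5g2 encodes the c subunit of the rotor, had the smallest adjusted p of complex V in all 4 comparisons. It had 450, 435 and 454 FPKM in WT CMC, 721, 749 and 768 FPKM in WT DEHP, 470, 462 and 485 FPKM in KO CMC and 806, 813 and 780 FPKM in KO DEHP libraries at 28 days. The 90-day values were 426, 395, 409 and 442 FPKM in WT CMC, 551, 499.8, 592 and 606 FPKM in WT DEHP, 419, 456, 416 and 456 FPKM in KO CMC and 517, 517, 561 and 571 FPKM in KO DEHP libraries. DEHP libraries stood above CMC libraries without overlap in all 4 comparisons. The log2 fold changes were 0.74 and 0.76 at 28 days (SE 0.077, adjusted p = 1.73e-07 and 8.17e-08) and 0.42 and 0.31 at 90 days (SE 0.067, adjusted p = 0.000265 and 0.00642). The call of WT at 90 days was lost with the replicate block in those groups alone (adjusted p = 0.0926).

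The other c subunit genes, named after their values were seen, differed from it. Atp5g1 rose by 0.38 and 0.56 at 28 days (adjusted p = 0.0341 and 0.00138) and had 0.12 and -0.06 at 90 days. Atp5g2 had 82.0, 36.1 and 3.18 FPKM in WT CMC and 249, 153 and 86.1 FPKM in WT DEHP libraries at 28 days, and 157, 1.68, 40.4 and 224 FPKM in WT DEHP libraries at 90 days. Its libraries differed widely within groups, and a log2 difference of 2.68 (SE 1.15) in WT at 28 days did not pass (adjusted p = 0.126). The 3 genes together had 715 ± 53.8 and 1205 ± 80.4 FPKM under CMC and DEHP in WT at 28 days and 758 ± 76.9 and 1201 ± 53.4 FPKM in KO (SD, n = 3). At 90 days they had 659 ± 26.6 and 858 ± 155 FPKM in WT and 764 ± 49.6 and 857 ± 60.8 FPKM in KO (SD, n = 4).

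Atp5k and Atp5j2, small membrane subunits e and f of ATP synthase, followed different courses. Atp5k had 99.7, 97.6, 103 and 103 FPKM in WT CMC, 156, 179, 140 and 155 FPKM in WT DEHP, 143, 160, 121 and 111 FPKM in KO CMC and 151, 119, 117 and 172 FPKM in KO DEHP libraries at 90 days. It rose in WT at 90 days by 0.63 (SE 0.126, adjusted p = 0.00247), where the groups did not overlap, and had 0.06 in KO (adjusted p = 0.872), where they did. Atp5j2 rose in KO at 28 days by 0.35 (adjusted p = 0.00647) and in WT at 90 days by 0.34 (adjusted p = 0.0101), with 0.22 and 0.10 in the others (adjusted p = 0.114 and 0.566). Of the genes that share only the symbol, Atp5s had 0.35, 0.26, 0.34 and 0.16 and passed in none (adjusted p = 0.081 or more), and Atp5sl passed in KO at 90 days alone, at 0.37 (adjusted p = 0.00529).

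Summed over the subunits of a complex, FPKM were higher under DEHP throughout. At 28 days the sums were higher by 27.5% and 29.4% in WT and KO for complex I, by 18.9% and 20.2% for complex II, by 32.6% and 30.6% for complex III, by 36.1% and 35.0% for complex IV and by 34.1% and 34.6% for complex V. At 90 days the same figures were 19.5% and 12.1%, 15.7% and 11.5%, 22.1% and 15.8%, 26.6% and 18.5%, and 21.0% and 10.8%. The sums of complex IV were 4155 ± 177 and 5656 ± 108 FPKM under CMC and DEHP in WT and 4087 ± 94.5 and 5517 ± 269 FPKM in KO at 28 days (SD, n = 3). Libraries under DEHP were above those under CMC in all of these but complex II in WT at 90 days. After upper quartile scaling the KO rises at 90 days were 7.21%, 6.60%, 10.7%, 13.3% and 5.84% for complexes I to V, and the groups overlapped in complexes I, II and V.

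**Figure D3:**
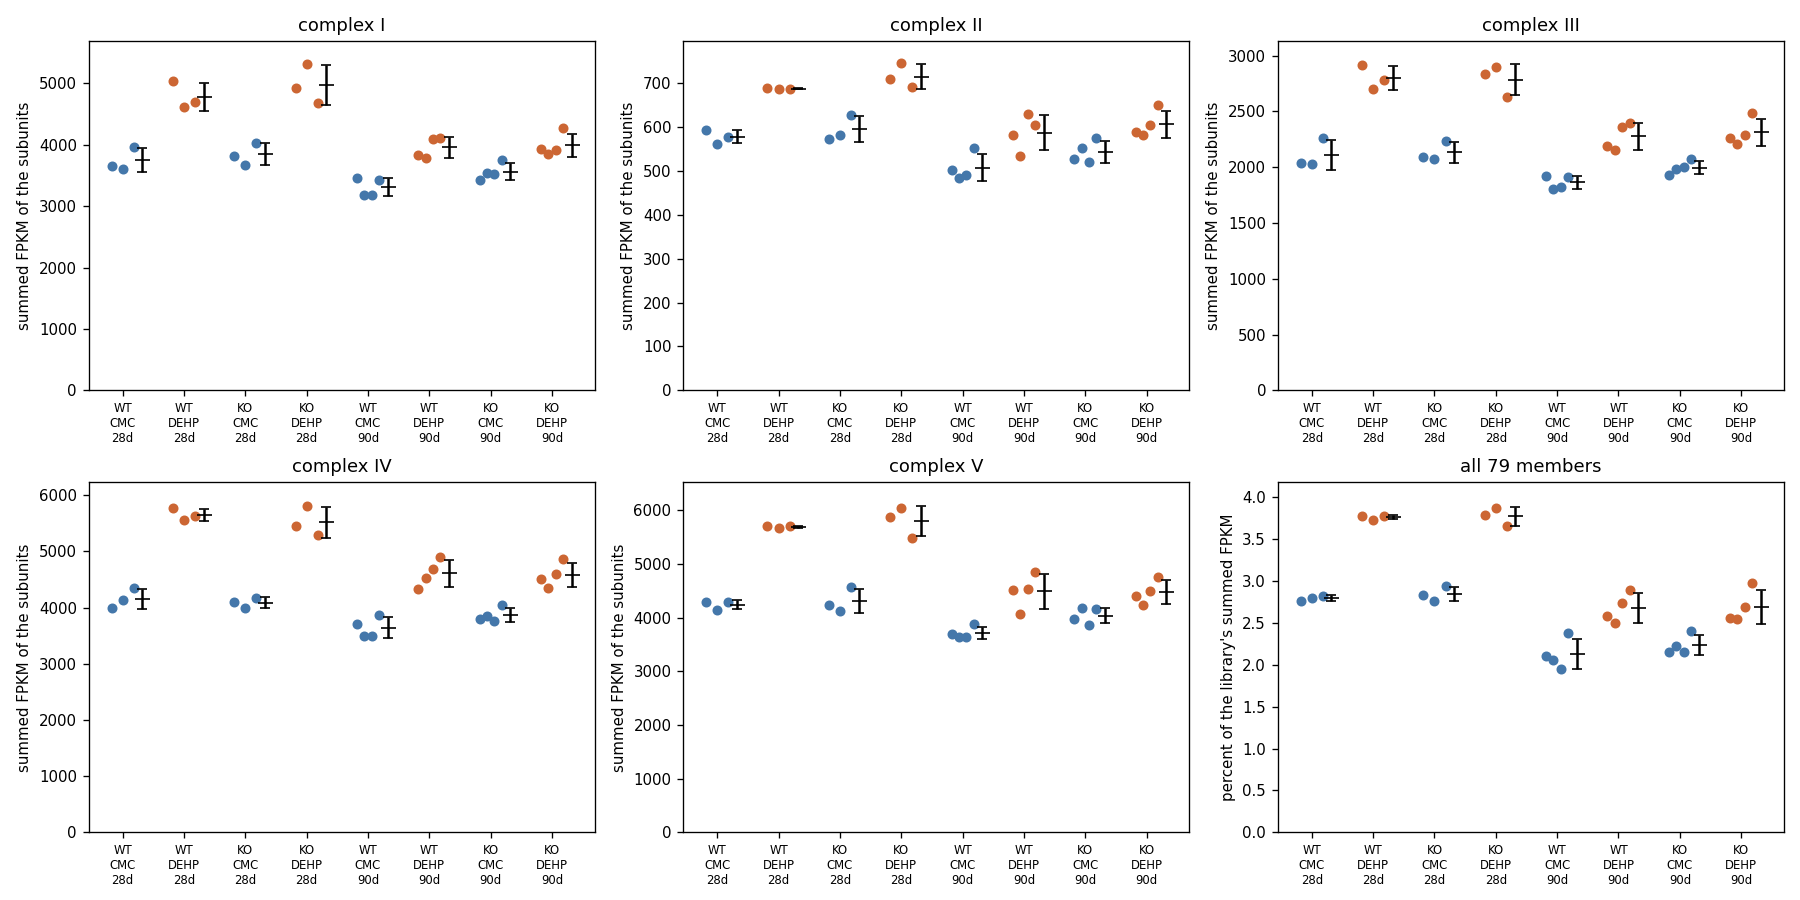
Summed FPKM of the subunits of each complex per library, and the share of all 79 genes in the summed FPKM of the library (last panel, in percent), blue for CMC and orange for DEHP, with group means and SD in black. DEHP libraries are above CMC libraries of the same genotype and time in each panel except complex II in WT at 90 days, and the share rises from at most 2.93% to at least 3.65% at 28 days.

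The next comparison asked whether the response to DEHP differed between 28 and 90 days, over both genotypes. Of 79 genes 25 had a smaller fold change at 90 days (31.6%, against 4.82% of all genes) and 0 a larger one (against 4.99%) by limma; at an unadjusted p under 0.05 the counts were 33 and 0. They were 10 subunits of complex I, 3 of complex III, 5 of complex IV and 7 of complex V, and 0 of complex II. The median difference was -0.15, against 0.02 for all genes. Atp5g3 differed by -0.38 (adjusted p = 0.000746) and Ndufb3 by -0.35 (adjusted p = 0.00114). Ndufs5 differed by -0.41 (adjusted p = 0.00201) and Uqcrfs1 by -0.34 (adjusted p = 0.00202). Cox6b2, kept only through its DEHP libraries, is among the 25, and its -2.45 (SE 0.245) is a description. Cox7c, with 0.43 and 0.53 as the mean of both genotypes at 28 and 90 days, did not pass. After upper quartile scaling 22 passed (27.8%, against 5.47%). Without the pancreas libraries the KO DEHP group at 90 days, which enters this comparison, is left with a lone library. Calls of that fit are therefore not given for the difference between times. The 25 genes here are not independent of the calls above, since the same libraries enter both, and sex as read from Xist and the Y-linked genes changed with time.

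**Figure D4:**
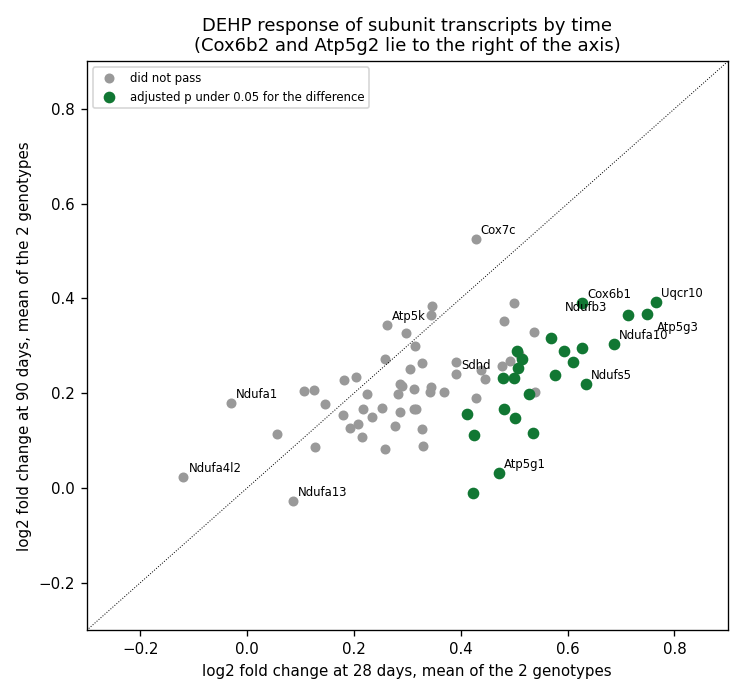
Log2 fold change under DEHP at 28 days (horizontal) and 90 days (vertical), each the mean of both genotypes, 1 point per gene; green marks an adjusted p under 0.05 for the difference between times and the dotted line marks equal values. Most points lie under the line, and Cox7c (0.43 and 0.53) lies above it; Cox6b2 and Atp5g2 lie to the right of the axis.

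The genotype comparisons asked whether the loss of Pparg in macrophages changed the subunits. With CMC at 28 days limma called 0 of 79 genes in either direction (against 0% higher and 0.0446% lower of all genes), and 0 had an unadjusted p under 0.05. With DEHP at 28 days it called 0 (against 0% and 0.0178%), with 2 higher and 1 lower at an unadjusted p under 0.05. The smallest p there was that of Uqcr11, which had 523, 486 and 501 FPKM in WT DEHP and 431, 440 and 405 FPKM in KO DEHP libraries, without overlap. Its difference of -0.24 (SE 0.096) did not pass (adjusted p = 0.761), nor did its interaction of genotype and DEHP of -0.32 (SE 0.135, adjusted p = 1.0).

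With CMC at 90 days 0 of 79 passed in the genotype comparison (against 0% and 0.00892%), while 76 of 79 were positive with a median of 0.09, against 0.02 for all genes, and 5 had an unadjusted p under 0.05. Atp5k had the smallest p, with 134 ± 21.8 FPKM in KO and 101 ± 2.79 FPKM in WT (SD, n = 4) and no overlap, but 0.39 (SE 0.126) did not pass (adjusted p = 0.49). With DEHP at 90 days Atp5sl alone was called (1.27% of the 79 genes, against 0.348% of all genes higher), and it is no subunit; 2 higher and 2 lower had an unadjusted p under 0.05. Atp5sl (Entrez 66349, chromosome 7, 25619414 to 25625550) had 12.3, 10.9, 13.1 and 13.2 FPKM in WT DEHP and 15.9, 14.5, 16.5 and 17.97 FPKM in KO DEHP libraries, without overlap. Its difference was 0.37 (SE 0.077, adjusted p = 0.0289). The call was lost after upper quartile scaling (adjusted p = 0.0573) and without the low-endothelial libraries (adjusted p = 0.0771).

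Without a test, all KO libraries lay above all WT libraries for 4 of 79 genes with CMC at 28 days (against 8.39% of all genes), 5 with DEHP at 28 days (against 6.09%), 8 with CMC at 90 days (against 2.1%) and 1 with DEHP at 90 days (against 5.64%). They lay below for 5, 1, 0 and 1 genes (against 1.98%, 3.07%, 1.67% and 1.69%).

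The test of the difference in the DEHP response between genotypes, the interaction, called none of the 79 genes. At 28 days 0 passed (against 0.0178% of all genes higher and 0% lower), with a median of -0.0012, and 1 had an unadjusted p under 0.05. At 90 days 0 passed (against 0% in both directions), 66 of 79 were below 0 or at 0 with a median of -0.08, against 0.03 for all genes, and 1 higher and 7 lower had an unadjusted p under 0.05. The lowest p was that of Atp5k (-0.57, SE 0.178, adjusted p = 0.71), followed by Ndufb3 (-0.27, SE 0.089, adjusted p = 0.724) and Atp5sl (0.32, SE 0.108, adjusted p = 0.724). For Cox6b2 the interaction was -0.08 (SE 0.371, adjusted p = 1.0) at 28 days and -0.51 (SE 0.321, adjusted p = 0.956) at 90 days. The count of 34 against 18 calls in WT and KO at 90 days is thus not matched by a called difference of any single gene.

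Genes that feed, build or surround the chain were counted from lists chosen with earlier results of these data known. Counts are given in the order WT and KO at 28 days, WT and KO at 90 days. In that order 10.3%, 11.6%, 4.96% and 4.47% of all genes tested were called higher. Called lower were 6.17%, 8.77%, 1.84% and 1.18%. No list was tested as a set. Of 5 subunits and partners of the complexes outside the symbol rule 5, 4, 4 and 1 rose, among them Ndufab1, the acyl carrier protein held by complex I (1.14, 1.48 and 0.43, and 0.26 with adjusted p = 0.08 in KO at 90 days), and Cyc1, cytochrome c1 of complex III (0.53, 0.59 and 0.24, and 0.11 with adjusted p = 0.496). The gene that rose in KO at 90 days was 2010107E04Rik (0.34, adjusted p = 0.00988). Of 13 genes for cytochrome c and coenzyme Q synthesis 8, 9, 5 and 2 rose; Cycs, cytochrome c itself, rose by 0.81, 1.17 and 0.36 (adjusted p = 1.13e-06, 3.99e-09 and 0.00834) and had 0.14 in KO at 90 days (adjusted p = 0.402). Coq10a, a coenzyme Q binding protein, fell in KO at 28 days (-0.33, adjusted p = 0.0357) and WT at 90 days (-0.41, adjusted p = 0.00878), and in KO at 90 days it rose with Coq9 (0.37 and 0.36, adjusted p = 0.0236 and 0.00365). The 3 genes that pass electrons from fatty acid oxidation to coenzyme Q rose in 2, 3, 3 and 2 cases: Etfdh, the oxidoreductase, in all 4 (0.93, 0.82, 0.75 and 0.58), Etfb in the first 3 and Etfa in the last 3.

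Of 12 genes of the tricarboxylic acid cycle, which supplies NADH and succinate, 10, 7, 7 and 5 rose, among them Suclg1 (0.78, 0.73, 0.52 and 0.47) and Mdh2 (0.95, 1.04 and 0.31, and 0.17 with adjusted p = 0.341 in KO at 90 days). Of 5 carriers of the inner membrane 4, 4, 4 and 1 rose: Ucp2, an uncoupling protein, in all 4 (2.64, 2.72, 1.47 and 0.94, adjusted p = 4.12e-08, 2.14e-08, 0.000114 and 0.0109), and Slc25a20, Slc25a5 and Slc25a3, carriers of acylcarnitine, ADP/ATP and phosphate, in the first 3. Of 15 assembly factors for complex I 4, 4, 3 and 0 rose (against 10.3%, 11.6%, 4.96% and 4.47% of all genes). Of these 15, 1, Ndufaf3, fell in WT at 28 days (-0.59, adjusted p = 0.027). Of 32 for complexes II to V 5, 11, 3 and 0 rose, against the same shares, among them the copper chaperone Cox17 (0.62, 0.68 and 0.40). Of 11 regulators of mitochondrial biogenesis 1, 1, 0 and 0 rose, no more than the same shares of all genes. The 1 was Tfb2m, a mitochondrial transcription factor (0.44 and 0.43, adjusted p = 0.0064 and 0.00573). The median log2 fold changes of the 11 were between -0.04 and 0.07. As a check of the treatment, 8, 8, 7 and 6 of 8 PPARalpha targets rose (against 10.3%, 11.6%, 4.96% and 4.47% of all genes). Cpt1b of this list was at most 0.58 FPKM under CMC and was kept only through DEHP libraries, so its part is a description.

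**Figure D5:**
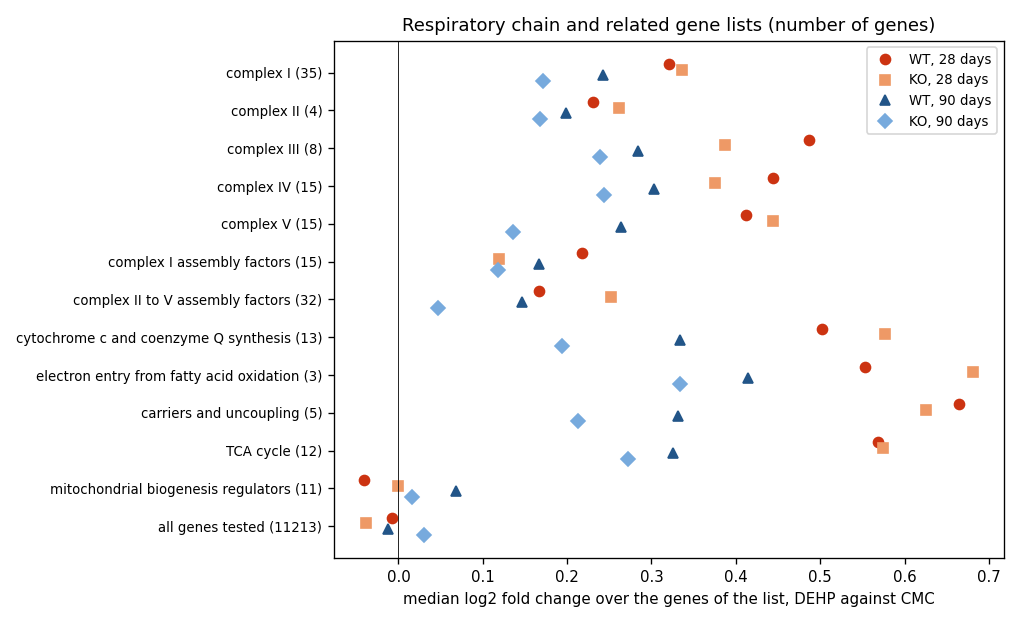
Median log2 fold change under DEHP against CMC (horizontal) over the genes of each complex and of the related lists (vertical, with the number of genes), 1 symbol per genotype and time. The complexes and the lists for coenzyme Q, electron entry, carriers and the tricarboxylic acid cycle lie above 0.1 in all 4 comparisons, and biogenesis regulators and all genes tested lie between -0.04 and 0.07.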

How the data were processed

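RNA-seq of whole liver was deposited as one table of FPKM, which the authors made with Cuffdiff on mm10 (GRCm38), per the submitters' processing notes; the aligner and the strandedness of the libraries are not given in the sources used here. FPKM are not counts, so values were compared as log2(FPKM + 1) with limma 3.58.1 (R 4.3.3; linear model of 8 group means over 28 libraries, empirical Bayes with trend), two-sided, with Benjamini-Hochberg adjustment over 11213 genes. Tables and figures were made with Python 3.11.15, numpy 2.4.6, pandas 2.3.3 and matplotlib 3.10.9, and the fit was tested on simulated data. Positions and the 250 bases before gene starts are from RefSeq on GRCm38.p6; all 79 genes had a position. Of these, 25 overlap the span of another gene, 13 that of a protein-coding one, where reads could be shared.

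Members and lists were chosen with earlier results of these data known. Genes were named if they were the most abundant of a complex, had the smallest adjusted p of a complex in a DEHP comparison, had the highest or lowest fold changes called, were called in a genotype comparison (or had the smallest p there), were tissue forms, or were catalytic or core subunits; others are said to be chosen after their values were seen. Some genes that the rule names are not reported here.

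Groups shared replicate numbers, and the labels do not say that these mark pairs or a batch. The deviations of same-numbered libraries correlated at over 0.1 in every pair only for DEHP against CMC in WT at 90 days (0.262, 0.252, 0.22 and 0.665). A fit with the replicate number as a block is therefore given beside that result. The 0.665 is that of the libraries numbered 4, which both carried pancreas markers. Alternatives were a pseudocount of 0.1, no filter, a stricter minimum of 5 FPKM, scaling to the upper quartile, quantile normalization, the replicate block, fits within a time point and leaving out each library; fits without pancreas-marked or low-endothelial libraries and the block in 2 groups alone were added after seeing the data. Depth was estimated from the steps between low values and was not used in the tests; at the lowest depth a transcript of 1 kb at 1 FPKM rests on about 7.6 fragments.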

Additional observations from a re-analysis of the deposited data

Results flagged for a closer look

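The response to DEHP differed between times by limma's interaction of agent and time for 25 of the 79 genes, all smaller at 90 days. Log2 differences among the genes described were -0.41 for Ndufs5, -0.38 for Atp5g3, -0.37 for Uqcr10, -0.35 for Ndufb3 and -0.34 for Ndufs1. They were -0.34 for Uqcrfs1, -0.33 for Cox7a2, -0.31 for Cox5a, -0.27 for Atp5a1, -0.25 for Atp5d, -0.24 for Cox6a1 and -0.24 for Cox6b1. That of Cox6b2, kept only through its DEHP libraries, was -2.45 and is a description. Time and sex as read from transcripts cannot be told apart in these libraries.

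Single libraries stood far from the other 3 of their group in 13 of 204 groups of 4 examined, where chance gives about 1 in 20. In WT CMC 4 at 90 days, the library with striated muscle markers, Cox6a2 was 6.48 FPKM (others 0.16 to 0.33), Cox8b 5.15 FPKM (others listed at 0) and Ndufs1 38.52 FPKM (others 33.05 to 33.96). In WT CMC 1 at 90 days Uqcr10 was 205.29 FPKM (others 186.87 to 189.26) and Uqcr11 315.41 FPKM (others 282.5 to 286.4), and in WT CMC 2 Ndufs3 was 76.66 FPKM (others 86.87 to 88.61) and Cox4i2 0.15 FPKM (others listed at 0). In WT DEHP at 90 days Cox6c was 388.34 FPKM in replicate 1 (others 465.3 to 479.94), and in replicate 2 Uqcrfs1 was 159.13 FPKM (others 180.63 to 184.77) and Cox6a2 0.14 FPKM (others listed at 0). In KO at 90 days Atp5s was 3.46 FPKM in DEHP 3 (others 2.46 to 2.51), Sdhb 176.46 FPKM in DEHP 4 (others 150.88 to 154.13) and Cox4i2 0.15 FPKM in CMC 2 (others listed at 0).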

How the results depend on the processing

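The counts at 28 days stayed within 1.5 times under every alternative run for them, except that 1 gene was called lower in WT without WT DEHP 6; leaving out 1 library gave 43 to 52 higher in WT and 40 to 56 in KO. In WT at 90 days the 34 genes became 20 under quantile normalization, 33 with the replicate block over all libraries, 4 with the block in those 2 groups alone, and 23 to 44 when 1 library was left out. In KO at 90 days the 18 genes became 4 under upper quartile scaling and 2 under quantile normalization (Cox6b2 and Atp5sl). They became 9 without the low-endothelial libraries and 8 to 18 when 1 library was left out. The genotype call of Atp5sl with DEHP at 90 days (1 gene) became 0 under upper quartile scaling and quantile normalization. It also became 0 in the fit within the time point and without the low-endothelial libraries. Leaving out 1 library gave 0 to 1. The 25 genes that differed between times became 17 to 25 when 1 library was left out. Under upper quartile scaling the summed FPKM in WT at 28 days rose by 14.4%, 27.5%, 30.9% and 29.0% for complexes II to V. The cause of these shifts was not tested. Shares of all genes called are given above only for upper quartile scaling, in the DEHP and time comparisons. For the other fits a general loss of calls cannot be told apart. No fold change of a named gene reversed while called. Over the tested genes that the rule names, 8156 values stayed on their side of the threshold, 313 lost a call and 35 gained one. These cover all comparisons and alternatives, with the fit without the pancreas libraries, which leaves KO DEHP 4 alone in its group. FPKM are shares of a library, so the tests cannot tell a change of these transcripts from a change of the others.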
